A study of Mus musculus with 6 samples.

Results

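The transcript levels of 9 genes of mitochondrial apoptosis and calpain proteolysis were measured in gastrocnemius, a fast calf muscle, of mice bearing the C26 tumor and of control mice. The genes, with the Entrez IDs by which they are listed, were Bcl2l1 (12048), Bcl2 (12043), Mcl1 (17210), Bax (12028), Bak1 (12018), Casp9 (12371), Capn1 (12333), Capn3 (12335) and Cast (12380). They were chosen by name, with earlier results of these data known, and all 9 are among the 13363 genes listed. C26 is a murine colon adenocarcinoma line, and subcutaneous C26 tumors are a common model of cachexia, the wasting of muscle and fat in cancer. Tumor cells had been inoculated under the skin of the right flank, so the muscle lay away from the tumor. The C26 group held 3 muscles and the control group held 3 muscles. All came from Balb/c mice, given by the study's methods as males bought at a few weeks of age, and no genotype or drug differed between the groups. The question was how the muscle transcriptome of tumor-bearing mice differed from that of mice without a tumor.

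Mitochondrial apoptosis is controlled by proteins of the Bcl2 family. Bax and Bak1 form pores in the outer mitochondrial membrane, and Bcl2, Bcl-xL (the product of Bcl2l1) and Mcl1 hold them in check. Pores release cytochrome c, which drives the assembly of a complex that activates caspase 9, the initiator encoded by Casp9, and caspase 9 starts the caspase cascade. Calpains are calcium-dependent cysteine proteases. Calpain 1, encoded by Capn1, can cut proteins that anchor the myofibril, calpain 3, encoded by Capn3, is the muscle calpain whose loss causes a limb-girdle muscular dystrophy, and calpastatin, encoded by Cast, is the endogenous inhibitor of calpain 1 and calpain 2.

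Levels are given in FPKM, read fragments scaled to transcript length and to the library's mapped reads, so genes can be set against each other. The FPKM of all genes added up to 531061 to 585169 per C26 muscle and 626992 to 688300 per control muscle, and read depth is unknown. The 9 muscle fiber markers were abundant in every library (their sum was 61363 to 96984 FPKM in C26 against 136561 to 145199 FPKM in the controls, 0 higher and 2 lower). Control replicate 3 stood apart: 4 of 11 markers of B and T cells were listed, and their sum was 662 FPKM there, against 1.36 to 8.72 in the other 5 muscles, while 0 of the 4 passed the test. C26 replicate 3 differed in fiber markers: the oxygen carrier Mb was at 4906 FPKM there and at 275 and 74.0 FPKM in C26 replicates 1 and 2, and the myosin heavy chains Myh1 and Myh2 were at 2555 and 379 FPKM against at most 299 and 84.5 FPKM in the other C26 muscles. The part of this in the lower Bcl2l1, Mcl1 and Cast levels of that muscle was not tested. The summed fat cell markers were lower in C26 (251 to 386 against 538 to 4130 FPKM, 6 of 7 lower), as were those of fibroblasts (159 to 199 against 356 to 424, 4 of 6 lower), and those of endothelial cells were 56.3 to 63.4 against 70.2 to 104 (2 of 8 lower). Red blood cell markers were higher (615 to 1188 against 329 to 508, 4 of 4 listed), macrophage and neutrophil markers overlapped (68.2 to 332 against 67.5 to 261, 2 of 11 higher), and so did satellite cell markers (13.2 to 17.9 against 9.54 to 14.6, 1 of 6 higher). Some of these calls turned on 1 muscle. Without control replicate 3, 2 red blood cell markers were higher, 4 endothelial markers were lower, and 0 satellite cell markers were higher and 1 lower. Without C26 replicate 3, 3 fat cell markers and 1 endothelial marker were lower, and 4 macrophage and neutrophil, 2 satellite cell and 0 fiber markers were higher, with 4 fiber markers lower. C26 replicate 2 had Cd68, a macrophage marker, at 247 FPKM, against 6.46 to 34.9 in the other C26 muscles and 1.75 to 5.77 in the controls. Other markers of that list were mixed there. Adgre1 (0.46 FPKM), Csf1r (2.52) and Mrc1 (1.25) were not above the highest control (0.50, 8.34 and 2.86). Neither were C1qa, C1qb, C1qc and Lyz2, while Cd163, S100a8 and S100a9 were above every control. In bulk muscle, fewer cells of a type and less RNA per cell cannot be told apart.

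Of the 9 genes, 3 were higher in C26 muscle and 0 were lower at an adjusted p under 0.05 in limma, a linear model fitted over all 13363 genes on log2(TPM + 1), where TPM are the FPKM rescaled to a common sum. The 3 were Bcl2l1, Mcl1 and Cast. Of all genes, 19.4% were called higher and 14.5% lower, 33.8% in all, so a call by itself was common. A call with a fold over 4 was made upward for 1.77% and downward for 1.73% of all genes. Of the 9, Bcl2l1 met it upward and 0 met it downward. At an unadjusted p under 0.05 the count of lower members was also 0. Without control replicate 3 the counts stayed at 3 higher and 0 lower, beside 16.7% and 14.7% of all genes. Without C26 replicate 3 they were 4 higher, with Bak1 added, and 0 lower. In that fit 24.8% of all genes were called higher and 16.2% lower. The labels do not say that the replicates were separate mice, so the p-values measure the spread between these samples.

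**Figure D1:**
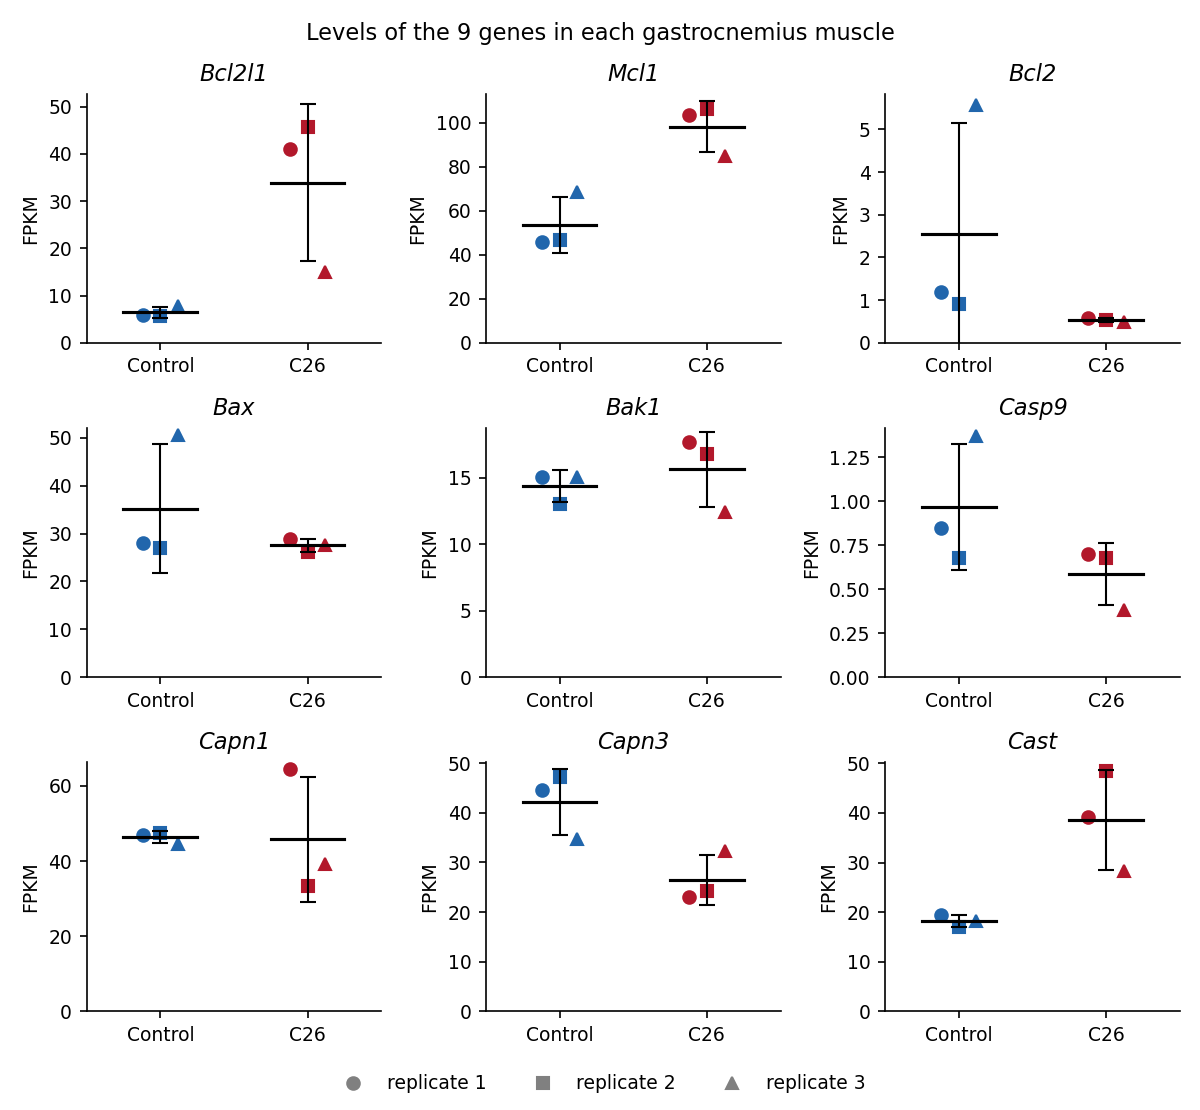
FPKM of each of the 9 genes (y axis, from 0, a scale for each panel) in the 3 control muscles (blue) and the 3 C26 muscles (red); the shape gives the replicate, the line the mean and the bar the SD. In Bcl2l1, Mcl1 and Cast every C26 muscle lies above every control muscle, while in Bcl2, Bax and Casp9 control replicate 3 (triangle) lies above all other muscles.

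Bcl2l1, which encodes the anti-apoptotic Bcl-xL, showed the largest change of the 9. It was at 41.1, 45.8 and 14.96 FPKM in C26 replicates 1, 2 and 3 and at 5.80, 5.76 and 7.85 FPKM in control replicates 1, 2 and 3. The groups did not overlap, and C26 replicate 3 lay closest to the controls. On the log2(TPM + 1) scale the difference was 2.35 ± 0.39 (SE, n = 3 and 3), a 5.11-fold higher level (95% interval of the log2 difference 1.42 to 3.29, limma adjusted p = 0.0081). Leaving out each muscle in turn gave differences of 2.10 to 2.90, all 6 called.

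Mcl1, an anti-apoptotic protein with a short life in the cell, was the most abundant of the 9 in every C26 muscle. In control replicates 1 and 2, Capn1 was slightly above it, and in control replicate 2 so was Capn3 (47.3 FPKM). Mcl1 led the control mean through control replicate 3. Its level was 103, 106 and 84.7 FPKM in the C26 muscles and 45.9, 46.8 and 68.3 FPKM in the controls. The groups did not overlap, although control replicate 3 was the highest control and C26 replicate 3 the lowest C26 muscle. The difference was 1.10 ± 0.17 on the log2(TPM + 1) scale (SE, n = 3 and 3), a 2.14-fold higher level (95% interval 0.68 to 1.51, limma adjusted p = 0.0074). It was called in all 6 fits that left out a muscle, with differences of 0.98 to 1.24.

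Bcl2, the founding member of the family, went against this pattern and was scarce. It was at 0.58, 0.54 and 0.50 FPKM in C26 and at 1.19, 0.90 and 5.56 FPKM in control muscles. Every C26 muscle was below every control, but the control values were far apart, with control replicate 3, the muscle with the lymphocyte markers, well above the rest. The log2(TPM + 1) difference of -1.02 ± 0.48 (SE) did not pass (95% interval -2.17 to 0.13, limma adjusted p = 0.14). Without control replicate 3 it was -0.43, with an adjusted p of 0.057 in limma. The part of these lymphocyte markers in the Bcl2 values was not tested.

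Upstream sequences are shown for the 3 genes called higher. They are the bases before the farthest-upstream transcript start of each gene in the RefSeq promoter table (build GRCm38.p6), which matched 9 of 9 genes through 16 starts. Written 5′ to 3′ on the gene's strand, they lie at chr2:152831729-152831978, minus strand, for Bcl2l1, at chr3:95658471-95658720, plus strand, for Mcl1, and at chr13:74808875-74809010, minus strand, for Cast, where the bases next to the start were left out because another annotated transcript covers them. For Bcl2l1 and Mcl1 the RefSeq gene record reaches farther upstream than the starts in this table, so both stretches lie inside the recorded span of the gene. Capitals mark CG pairs and, in Cast, also a match to TTCNNNGAA.
Bcl2l1: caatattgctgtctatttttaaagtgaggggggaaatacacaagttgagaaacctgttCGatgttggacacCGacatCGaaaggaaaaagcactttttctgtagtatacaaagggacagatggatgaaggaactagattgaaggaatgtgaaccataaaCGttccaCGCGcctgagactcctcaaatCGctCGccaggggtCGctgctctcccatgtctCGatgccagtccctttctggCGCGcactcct
Mcl1: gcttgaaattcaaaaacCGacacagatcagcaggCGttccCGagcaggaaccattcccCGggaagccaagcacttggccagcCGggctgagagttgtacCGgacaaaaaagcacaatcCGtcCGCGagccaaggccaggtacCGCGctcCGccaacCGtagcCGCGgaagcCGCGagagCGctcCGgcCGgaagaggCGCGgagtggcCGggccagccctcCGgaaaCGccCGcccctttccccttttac
Cast: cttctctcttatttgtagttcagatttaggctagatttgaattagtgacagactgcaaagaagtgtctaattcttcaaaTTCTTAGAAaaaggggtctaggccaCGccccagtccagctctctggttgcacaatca
Over the full 250 bases, Mcl1 held 26 CG pairs, Bcl2l1 held 12 and Cast held 3, against a median of 6 over 32851 promoters of the same length. The count depended on the start taken: the 3 Bcl2l1 starts held 0, 11 and 12, and the 4 Cast starts held 3, 8, 7 and 1. The motifs searched on both strands were TTCNNNGAA, the core bound by STAT factors, GTAAACA, a core bound by forkhead factors, and AGAACA, part of the element bound by the glucocorticoid receptor, none of which contains another. TTCNNNGAA was found in 1 of the 16 starts of the 9 genes, as TTCTTAGAA in Cast with its first base 171 bases before the start, and in 7.02% of all promoters. GTAAACA and AGAACA were found in 0 of the 16 (3.17% and 16.1% of all promoters). A match of letters is a description and not a binding site.

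The pore-forming genes did not pass the test. Bax was at 28.9, 26.2 and 27.5 FPKM in the C26 muscles and at 28.0, 26.9 and 50.7 FPKM in the controls. Apart from control replicate 3, the 5 muscles lay within a narrow range and the groups overlapped. The log2(TPM + 1) difference was -0.08 ± 0.23 (SE, 95% interval -0.63 to 0.48, limma adjusted p = 0.81), and it turned to 0.17 without control replicate 3 (limma adjusted p = 0.40).

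Bak1 was at 17.7, 16.8 and 12.4 FPKM in C26 and at 15.1, 13.0 and 15.1 FPKM in control muscles, which overlap, with C26 replicate 3 below all the others. After rescaling to a common sum the C26 muscles were above the controls (4.61 to 5.02 against 4.51 to 4.56 on the log2(TPM + 1) scale), so whether the groups overlapped depended on the scale. The difference was 0.31 ± 0.15 (SE, 95% interval -0.05 to 0.67, limma adjusted p = 0.15). Without C26 replicate 3 it was 0.51 and passed (limma adjusted p = 0.027), whereas with FPKM as deposited it was 0.10 (adjusted p = 0.66) and with quantile normalization 0.035 (adjusted p = 0.87).

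Casp9, the initiator caspase downstream of the pore, was among the scarcer genes of the table, with 18.5% of listed genes below its mean level. It was at 0.70, 0.68 and 0.38 FPKM in C26 and at 0.85, 0.68 and 1.37 FPKM in control muscles. The groups overlapped, and control replicate 3 was again the highest. The log2(TPM + 1) difference of -0.27 ± 0.19 (SE) did not pass (95% interval -0.72 to 0.18, limma adjusted p = 0.30). It was -0.10 without C26 replicate 3 and -0.12 without control replicate 3.

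Of the 3 calpain system genes among the 9, the inhibitor Cast rose, and Capn1 and Capn3 did not pass the test. Cast was at 39.2, 48.4 and 28.3 FPKM in C26 and at 19.5, 17.1 and 18.1 FPKM in control muscles. The controls were close together, the groups did not overlap, and C26 replicate 3 was again nearest to the controls. The log2(TPM + 1) difference was 1.24 ± 0.19 (SE, n = 3 and 3), a 2.36-fold higher level (95% interval 0.79 to 1.69, limma adjusted p = 0.0066). Leaving out each muscle gave 1.09 to 1.49, all 6 called.

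Capn1 was at 64.6, 33.3 and 39.3 FPKM in C26 and at 46.9, 47.5 and 44.5 FPKM in control muscles. The C26 values spread to both sides of the controls, and the log2(TPM + 1) difference was 0.14 ± 0.27 (SE, 95% interval -0.50 to 0.78, limma adjusted p = 0.70). Without C26 replicate 1, the muscle with the highest level, it was -0.13.

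Capn3 was at 23.0, 24.2 and 32.2 FPKM in C26 and at 44.7, 47.3 and 34.7 FPKM in control muscles. Every C26 muscle was below every control in FPKM, but C26 replicate 3 was close to control replicate 3, and on the log2(TPM + 1) scale the groups overlapped (5.38 to 5.95 against 5.67 to 6.34). The difference was -0.45 ± 0.24 (SE, 95% interval -1.03 to 0.13, limma adjusted p = 0.18). It passed when FPKM were used as deposited (-0.66, adjusted p = 0.042) and after quantile normalization (-0.84, adjusted p = 0.039), both in limma. The call on Capn3 therefore turned on how the muscles were scaled.

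**Figure D2:**
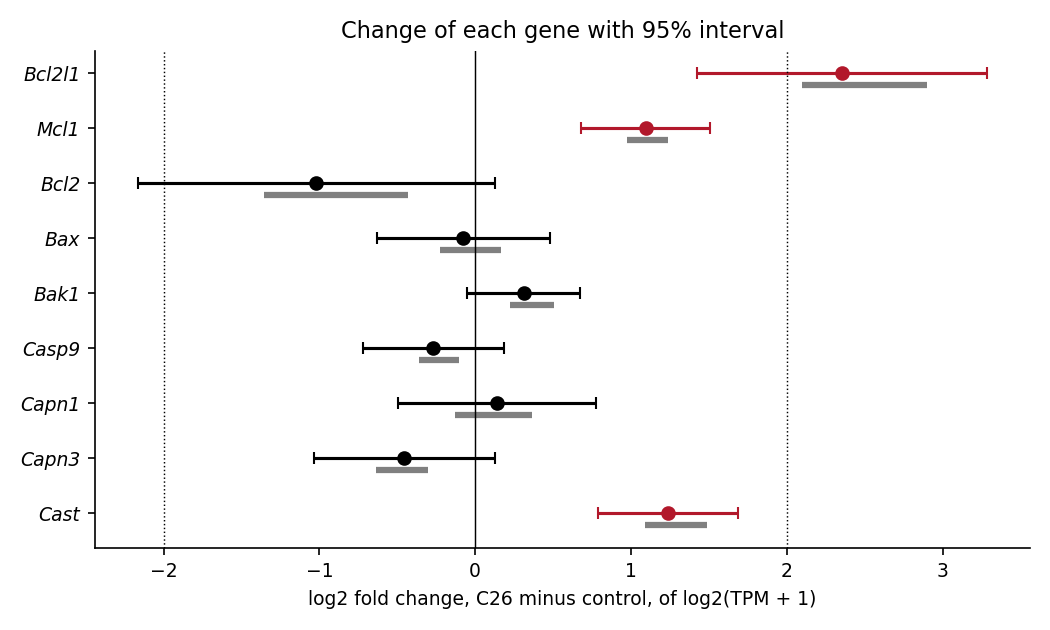
Difference between C26 and control muscles of log2(TPM + 1) for each gene (x axis, points) with the 95% interval from limma (bars); red points passed at an adjusted p under 0.05, grey bars span the values when each muscle was left out in turn, and dotted lines mark a fold of 4. Bcl2l1, Mcl1 and Cast lie wholly to the right of 0, and the intervals of the other 6 genes include 0.

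Without overlap on the log2(TPM + 1) scale were Bcl2l1, Mcl1, Bak1 and Cast upward, as were 27.0% of all genes, and Bcl2 downward, as were 26.5%. That made 5 of 9, beside 53.5% of all genes in either direction. On the FPKM scale they were Bcl2l1, Mcl1 and Cast upward (18.7% of all genes) and Bcl2 and Capn3 downward (34.6%). Single muscles weighed on several genes. Control replicate 3 was the highest control for 5 of the 9 genes and for 36.3% of all genes. C26 replicate 3 was the C26 muscle nearest to the control mean on the log2(TPM + 1) scale for 7 of the 9 and for 52.5% of all genes.

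The order of the levels differed between the groups. In control muscles the mean FPKM ran from Mcl1 (53.6) through Capn1 (46.3), Capn3 (42.2), Bax (35.2), Cast (18.2), Bak1 (14.4), Bcl2l1 (6.47) and Bcl2 (2.55) to Casp9 (0.97). Neighbours overlapped among Mcl1, Capn1, Capn3 and Bax and between Bcl2 and Casp9, and were apart elsewhere. In C26 muscles the order was Mcl1 (98.1), Capn1 (45.7), Cast (38.6), Bcl2l1 (33.9), Bax (27.5), Capn3 (26.4), Bak1 (15.6), Casp9 (0.59) and Bcl2 (0.54). There Mcl1 stood clear of Capn1, the genes from Capn1 to Capn3 each overlapped the next, and Casp9 and Bcl2 overlapped. Bcl2l1 moved from below Bak1 in every control to above Bak1 in every C26 muscle.

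Ratios of FPKM inside a muscle do not depend on how muscles are scaled against each other, and they are given as descriptions without a test. Bcl2, Bcl2l1 and Mcl1 together gave 145, 153 and 100.2 FPKM in the C26 muscles and 52.9, 53.4 and 81.7 FPKM in the controls. Bax and Bak1 summed to 46.6, 43.0 and 39.9 FPKM and to 43.1, 39.9 and 65.8 FPKM. Their ratio, pore-forming over anti-apoptotic, was 0.32, 0.28 and 0.40 in C26 and 0.82, 0.75 and 0.81 in control muscles. It was lower in every C26 muscle, and control replicate 3, high in the sums, lay within the other controls in the ratio.

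Within the anti-apoptotic sum, Bcl2l1 made up 28.4%, 30% and 14.9% of it in C26 and 10.97%, 10.8% and 9.61% in control muscles. Mcl1 held the largest share in each of the 6, with 71.2%, 69.6% and 84.6% in C26 and 86.8%, 87.5% and 83.6% in control muscles. These shares overlapped, and C26 replicate 3 lay among the controls. The often quoted ratio of Bax to Bcl2 went the other way: it was 49.8, 48.5 and 55.0 in C26 and 23.6, 29.9 and 9.12 in control muscles. Neither of these 2 genes passed the test, and Bcl2 was at most 0.58 FPKM in C26. The lowest control ratio was that of control replicate 3. Bax over Bcl2l1 was 0.70, 0.57 and 1.84 in C26 and 4.83, 4.68 and 6.46 in control muscles. The direction of a pore-forming to anti-apoptotic ratio thus depended on which anti-apoptotic gene was the denominator, and Bcl2 was at most 6.81% of the anti-apoptotic sum in any muscle.

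For the calpain system, Capn1 over Cast was 1.65, 0.69 and 1.39 in C26 and 2.41, 2.78 and 2.45 in control muscles. Every C26 muscle was lower. Capn3 over Capn1 was 0.36, 0.73 and 0.82 in C26 and 0.953, 0.996 and 0.780 in control muscles, and these overlapped.

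**Figure D3:**
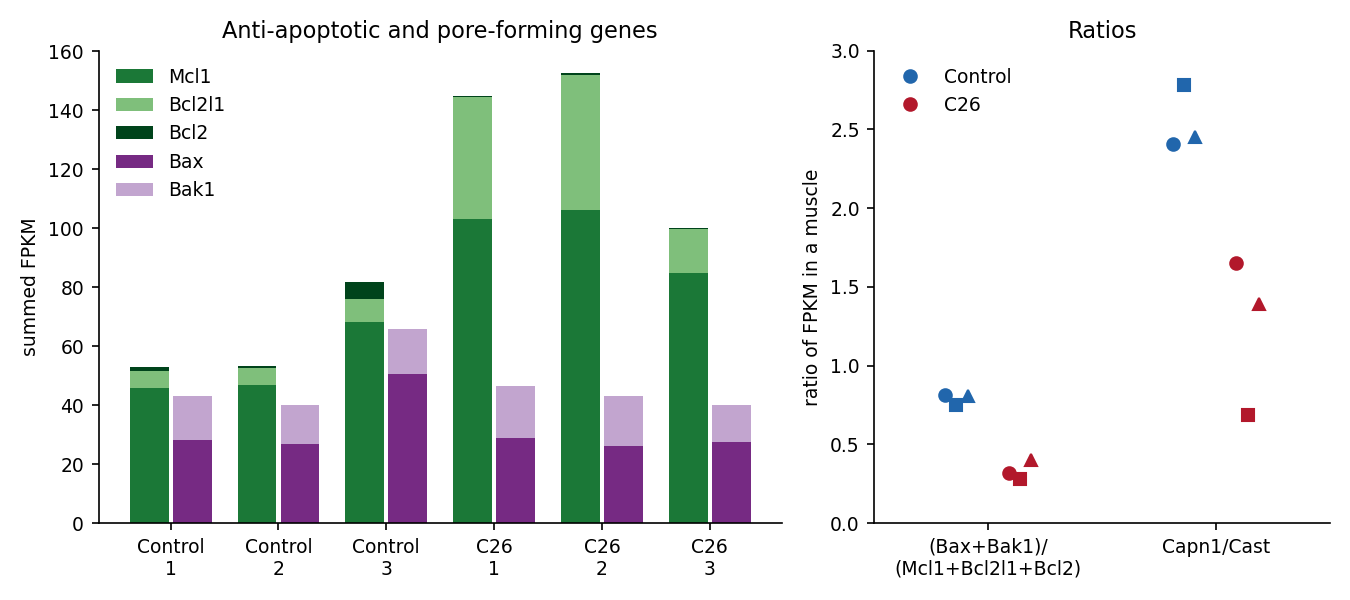
Left, FPKM of the anti-apoptotic genes Mcl1, Bcl2l1 and Bcl2 (green, stacked) and of the pore-forming genes Bax and Bak1 (purple, stacked) in each muscle; right, the ratio of the pore-forming to the anti-apoptotic sum and of Capn1 to Cast in each muscle (blue control, red C26; shapes give replicates 1 to 3 as circle, square and triangle). The green bars of the C26 muscles reach 100.2 to 153 FPKM against 52.9 to 81.7 in controls, and both ratios are lower in every C26 muscle.

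Other genes of the same pathways were taken from lists by role, of which 73 of 85 genes were listed. Of these 73, 10 were called higher and 8 lower, smaller shares than the 19.4% and 14.5% of all genes. The other 55 did not pass, and the median log2 difference was -0.09 beside -0.05 for all genes. Without control replicate 3 the counts were 10 and 8, beside 16.7% and 14.7% of all genes. Without C26 replicate 3 they were 11 and 13, beside 24.8% and 16.2% of all genes. Of the 18 calls, 8 were kept in all 14 alternatives and the rest in 5 to 12 of them, and 0 changed sign. The calls kept least often were Aifm1, Birc6 and Trp53inp1 (5 of 14 each), Casp8 (6), and Capn5 and Vdac2 (7 each).

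Among the relatives of the 5 Bcl2 family genes, the genes of the BNIP3 proteins rose. Bnip3, a mitochondrial protein that also serves as a receptor for mitophagy, was at 938, 684 and 469 FPKM in C26 and at 142, 135 and 92.2 FPKM in control muscles, a log2(TPM + 1) difference of 2.68 ± 0.30 (SE, limma adjusted p = 0.0035). Its paralog Bnip3l rose by 1.44 (limma adjusted p = 0.0045), and Bcl2l12 fell by 1.02 (limma adjusted p = 0.019), which made 2 higher and 1 lower of 7 listed. Of the BH3-only proteins, which relay death signals to the Bcl2 family, 0 of 6 listed were called, and Bcl2l11, which encodes Bim, was at 1.45 to 1.91 FPKM in C26 against 1.02 to 2.85 in control muscles. The other anti-apoptotic genes had 0 of 2 called, with Bcl2l2 at 6.86 to 9.15 against 5.48 to 9.33 FPKM. The other of the pair, Bcl2a1d, named after its values were seen, was at 11.3 FPKM in control replicate 3 and at 0.08 to 0.38 FPKM elsewhere. Bok, the third pore-forming relative, was at 0.57 to 0.85 FPKM against 1.07 to 1.65 and narrowly missed (limma adjusted p = 0.0503).

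Of the other caspase genes, those that passed were lower in C26. Casp6, which encodes an effector caspase, was at 0.88, 1.32 and 1.45 FPKM in C26 and at 2.97, 2.52 and 3.83 FPKM in control muscles (log2(TPM + 1) difference -0.86 ± 0.19, SE, limma adjusted p = 0.017). It was grouped with Dffa, Dffb and Parp1, genes of DNA fragmentation and repair, and it was the 1 of these 4 that passed. Of the other initiator caspases and adaptors, 2 of 8 were lower. Casp8, which acts downstream of death receptors, fell by 1.25 (limma adjusted p = 0.040) and its inhibitory relative Cflar by 0.88 (limma adjusted p = 0.0095). Casp8 was at 1.25 to 1.74 FPKM in C26 and at 4.31, 2.63 and 9.63 FPKM in controls, highest in control replicate 3. Without control replicate 3 the Casp8 difference was -0.84 (limma adjusted p = 0.030). Inflammatory and other caspases had 0 of 5 called, with Casp1 at 0.21 to 0.57 FPKM against 0.43 to 4.55, the top value again in control replicate 3.

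Of 6 genes of the apoptosome and of mitochondrial death factors, 2 were higher and 0 lower, with a median log2 difference of -0.21. Without control replicate 3 the counts were 1 and 0, and without C26 replicate 3 they were 2 and 2. Diablo, which encodes a mitochondrial antagonist of the inhibitor of apoptosis proteins, rose by 1.06 (limma adjusted p = 0.0084) and Aifm1, an oxidoreductase of the mitochondrion, by 0.79 (limma adjusted p = 0.045). Aifm1 no longer passed without control replicate 3 (limma adjusted p = 0.097). Apaf1, the scaffold that activates caspase 9, was at 0.26 to 0.53 FPKM against 0.36 to 0.68. Of the 4 listed inhibitor of apoptosis genes, Birc6 rose by 0.56 (limma adjusted p = 0.037), and Xiap was at 2.70 to 4.18 FPKM against 4.24 to 5.0 and did not pass.

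Of 6 receptors of the tumor necrosis factor receptor family, some of which lack a death domain, 1 was higher and 1 lower. Tnfrsf12a, the receptor of the cytokine TWEAK, which has no death domain, was at 64.1, 184 and 45.6 FPKM in C26 and at 7.23, 5.78 and 4.84 FPKM in control muscles, a log2(TPM + 1) difference of 3.87 ± 0.48 (SE, limma adjusted p = 0.0042). The highest value was in C26 replicate 2, the muscle with the most Cd68. Most other markers of the macrophage and neutrophil list were not above the highest control there. The part of macrophages in the Tnfrsf12a values was not tested. Tnfrsf10b, the TRAIL receptor, fell by 0.94 (limma adjusted p = 0.0074), and Fas was at 2.88 to 3.88 against 2.80 to 4.11 FPKM. Among 8 partners of Bcl2 proteins, Bag3, a co-chaperone that works at the muscle Z-disc, rose by 1.56 (limma adjusted p = 0.0091), Vdac2, which holds Bak1 at the membrane, rose by 0.56 (limma adjusted p = 0.023), and Bcap31, of the endoplasmic reticulum membrane, fell by 0.81 (limma adjusted p = 0.014). Among 6 genes of p53 and its regulators, Trp53inp1 rose by 1.57 (limma adjusted p = 0.043) and Mdm2, the ligase of p53, by 0.75 (limma adjusted p = 0.011), while Trp53 was at 5.76 to 10.7 against 9.24 to 22.4 FPKM and did not pass.

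The other calpains gave 2 lower and 0 higher of 10. Capn6, a calpain without protease activity, was at 0.18, 0.17 and 0.33 FPKM in C26 and at 1.62, 1.45 and 1.66 FPKM in control muscles (log2(TPM + 1) difference -1.29 ± 0.14, SE, limma adjusted p = 0.0034). Over the 14 alternatives the Capn6 difference ran from -2.36 to -0.93, and it was called in each. Capn5 fell by 0.54 (limma adjusted p = 0.029). Capns1, the small subunit that calpain 1 and calpain 2 share, was at 124, 149 and 123 FPKM against 131, 118 and 134, with a difference of 0.26 ± 0.13 (SE) that did not pass (limma adjusted p = 0.16). Capns1 was thus above Capn1 in each of the 6 muscles, in FPKM.

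**Figure D4:**
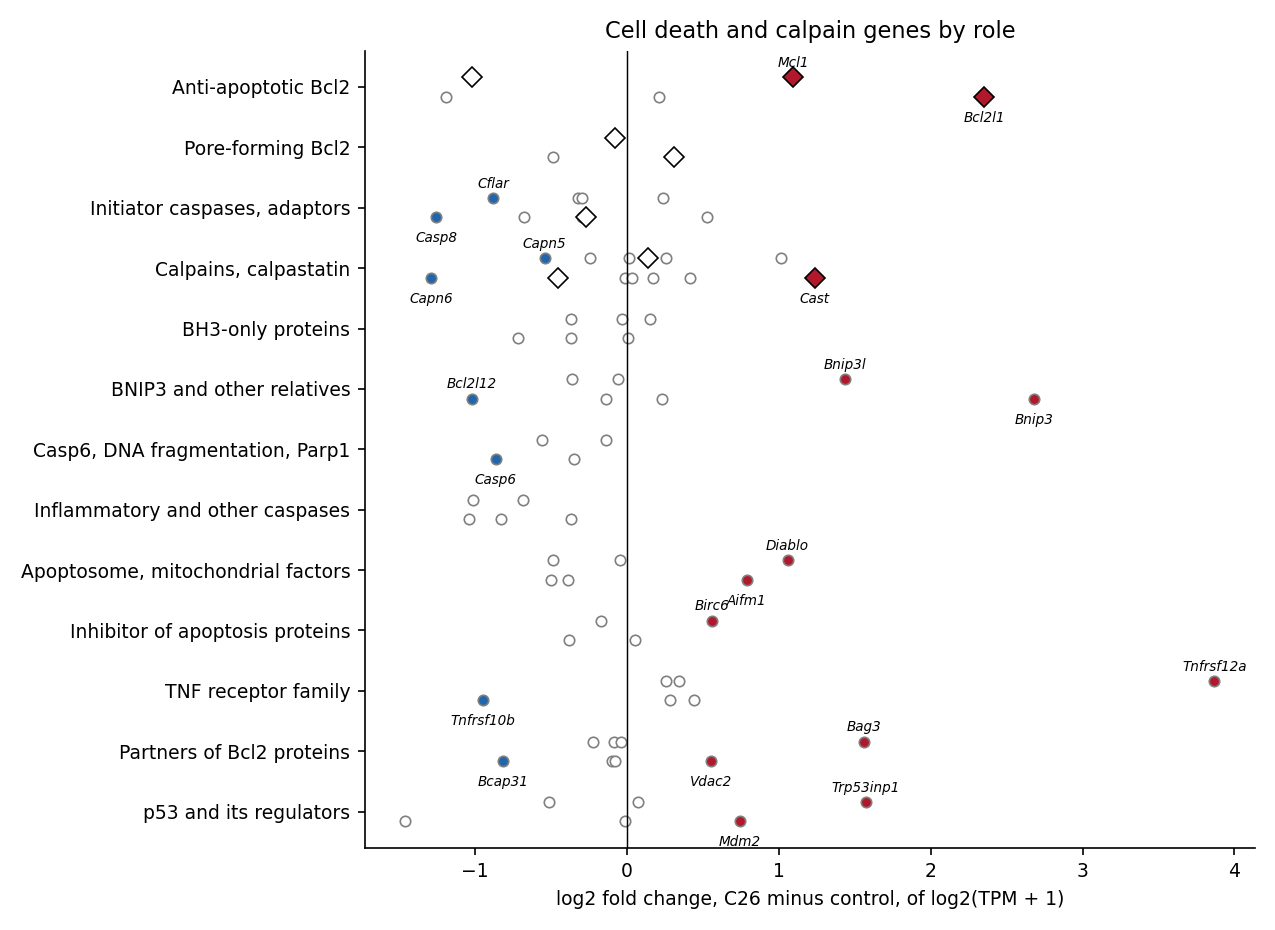
Difference between C26 and control muscles of log2(TPM + 1) (x axis) for every listed gene of the pathway lists, in a line for each role; diamonds are the 9 genes, circles the others, and filled points passed at an adjusted p under 0.05 (red higher, blue lower) and are named. Casp6, Casp8, Cflar and Capn6 are among the named genes to the left of 0. Those to the right by 1.10 or more are Bcl2l1, Mcl1, Cast, Bnip3, Bnip3l, Bag3, Trp53inp1 and Tnfrsf12a, and Diablo lies at 1.06.

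The genes most like each of the 9 were found by Pearson's r of log2(TPM + 1) over the 6 muscles, among 11223 genes with a mean TPM of at least 1. These are descriptions, since 6 points that fall into 2 groups give high r for many genes. The nearest to Bcl2l1 were Clint1, Mfap1a and Zfp384, each with C26 replicate 3 between the other C26 muscles and the controls (for Clint1, 43.3, 45.6 and 19.2 FPKM against 9.69, 9.99 and 12.5). The nearest to Mcl1 were Adnp2, Sphk2 and Urb2, and those to Cast were Ddrgk1, Psmd13 and Gm5785. The nearest to Bcl2 were Ube2c, Ikbke and Cnn2, all far higher in control replicate 3 than in any other muscle (for Cnn2, 77.9 FPKM against 2.73 to 6.87). Bax was nearest to Gimap5, Fam172a and Grk2, also highest in control replicate 3 (for Gimap5, 6.87 FPKM against 0.66 to 1.28). The nearest were Pttg1ip, Dctn6 and H1f4 for Bak1, Wdr6, Spint2 and Notch2 for Casp9, Gmpr, Gtf2e1 and Riiad1 for Capn1, and Def8, Heyl and Jam2 for Capn3.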

How the data were processed

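RNA from 3 C26 and 3 control samples of gastrocnemius was sequenced as single-end reads after removal of rRNA. The authors deposited FPKM values per gene with 2 decimals, made with RSEM from Bowtie2 alignments. The submitters' processing notes list Bowtie2 2.2.5, HISAT2 2.0.4, RSEM 1.2.12 and build mm9, whereas the study's methods name a later build, so which build underlies the values is open. FPKM keep no read counts, so depth is unknown and no counting interval is given. Groups were taken from the sample titles. Symbols were assigned to 13327 of 13363 gene IDs from RefSeq.

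FPKM were rescaled to a sum of 1000000 per muscle (TPM), divided by TMM factors (unweighted, with 30% of log ratios and 5% of levels trimmed) and transformed as log2(TPM + 1). The added 1 understates changes of genes at low levels. Groups were compared with limma 3.58.1 in R 4.3.3, two-sided, with Benjamini-Hochberg adjustment over all 13363 genes. A call needed an adjusted p under 0.05, and the fold of 4 follows the study. The fit was tested on simulated data. Alternatives were a pseudocount of 0.1, a filter at a mean TPM of 1, omitting the TMM factors, FPKM as deposited, quantile normalization, an intensity trend, an ordinary linear model, a replicate block and leaving out each muscle. From the other lists, genes that passed were named, at most 3 a list by size of change, with 1 more for its role, and the 3 nearest genes by Pearson's r were named for each member. The 9 genes and all lists were chosen with earlier results of these data known. A further 2 genes were left out of the lists, the counts over them and the plot, and are not reported here.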

Additional observations from a re-analysis of the deposited data

How the results depend on the processing

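Across 14 alternatives the 3 calls on Bcl2l1, Mcl1 and Cast were kept in every one, with log2 differences of 2.09 to 2.90, 0.69 to 1.24 and 0.86 to 1.49. The count of higher members was 3, or 4 without C26 replicate 3, where 24.8% of all genes were called higher. The count of lower members was 0, or 1 (Capn3) with FPKM as deposited or with quantile normalization. In these 2 fits 18.7% and 11.8% of all genes were called lower. Differences that changed sign, none of them called, were Bax without control replicate 3 (0.17), Casp9 with quantile normalization (0.18), and Capn1 with FPKM as deposited (-0.073), with quantile normalization (-0.26) and without C26 replicate 1 (-0.13). Leaving out each muscle gave -0.23 to 0.17 for Bax and -0.13 to 0.37 for Capn1. Of all genes, 2590 were higher and 1931 lower. With FPKM as deposited 1678 were higher and 2504 lower, so that 40.1% of calls were upward against 57.3% in the reported fit, and the median log2 difference of all genes was -0.14 against -0.05. The ordinary linear model gave 1526 and 959, and leaving out each muscle gave 1131 to 3311 higher and 669 to 2160 lower. The C26 and control muscles share replicate numbers. Over all genes, the deviations of same-numbered muscles from their group means had r = -0.04, -0.08 and -0.11. Pairs with unlike numbers had r of -0.10 to 0.13. With 3 muscles in a group, such r cannot show whether same-numbered muscles shared a batch, and the sample titles name no pairing. A replicate block gave 1844 higher and 1236 lower genes and the same 3 member calls. The causes of these shifts were not tested. Read depth is unknown, so Bcl2 and Casp9, near or under 1 FPKM in most muscles, cannot be given a counting error.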
